A study of Homo sapiens with 10 samples.

Results

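The genes described here are 46 named genes of the Wnt pathway and of intestinal stem and crypt cells, taken as a list of gene symbols by their known roles. The rule for membership holds no measured value, but the list was drawn up with earlier results of these data known. Of the 46, 42 had values in each of the tables used here, out of 13029 genes in the *ZMAT3* table and 17642 in the siRNA table. *LGR5*, *LEF1*, *ASCL2* and *CDX1* were not analysed here. In the canonical Wnt pathway, a secreted Wnt protein binds a Frizzled receptor and an LRP co-receptor, which through Dishevelled stops the AXIN, APC, GSK3 and CK1 destruction complex from marking β-catenin for degradation. Stable β-catenin then joins TCF/LEF factors in the nucleus and turns on target genes, several of which (*AXIN2*, *NKD1*, *DKK1*, *NOTUM*, *RNF43*) encode inhibitors that feed back on the pathway. In the intestine this pathway keeps the crypt stem cells dividing, and most colorectal cancers carry a mutation that switches it on. HCT116, the colorectal cancer line used in every sample, is known for an activating mutation of *CTNNB1* (β-catenin) with intact *APC*.

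Polyadenylated RNA of HCT116 cells that had received no drug was sequenced in 10 libraries. In the *ZMAT3* experiment, 3 libraries came from *ZMAT3*-WT cells and 3 from isogenic *ZMAT3*-KO cells, in which CRISPR/Cas9 with a pair of sgRNAs was aimed at the p53 response element in an intron of *ZMAT3*, a p53-induced RNA-binding protein. The knockout was a single clone with a small deletion near 1 guide and not a loss of the whole gene, so its replicates are separate samples of the same cells, and the p-values measure the spread between such samples, which may be technical, and not that between clones. In the siRNA experiment, 2 libraries came from cells transfected with a control siRNA (siCTRL) and 2 from cells transfected with a pool of siRNAs against p53 (sip53) for 72 h. The labels of the *ZMAT3* libraries also hold the abbreviations EV and unt, whose meaning is not given in the sources used here.

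The labels were checked on *ZMAT3*. The *ZMAT3* level was 5.00, 5.20 and 5.26 log2 CPM (read counts scaled to a common library total) in *ZMAT3*-WT and 2.25, 2.34 and 2.20 log2 CPM in *ZMAT3*-KO. In the siRNA libraries *ZMAT3*, itself induced by p53, stood at 12 and 13.6 FPKM (fragment counts divided by transcript length and by the library's total) in siCTRL and at 3.16 and 1.97 FPKM in sip53. The epithelial markers *EPCAM*, *CDH1*, *KRT8*, *KRT18* and *KRT19* all had values, with a summed level of 5734 to 6059 CPM in *ZMAT3*-WT, 3138 to 3220 CPM in *ZMAT3*-KO, 3726 to 3961 FPKM in siCTRL and 3525 to 4158 FPKM in sip53. Of 10 non-epithelial markers 2 had values in the *ZMAT3* table (*CD68* and *COL1A1*), with a summed level of 11.3 to 11.4 CPM in *ZMAT3*-WT and 14.1 to 14.4 CPM in *ZMAT3*-KO. There were 4 with values in the siRNA table, summing to 6.38 to 13.7 FPKM in siCTRL and 17.8 to 34.2 FPKM in sip53, with *CD68*, a lysosomal protein, at 7.97 and 2.06 FPKM in siCTRL and 11.6 and 26.9 FPKM in sip53. The part of these markers in the results on the 46 genes was not tested. The depth of the *ZMAT3* libraries is unknown, since the 6 libraries share a single distribution of values. For the siRNA libraries, the members' normalized counts as the authors' mean over the 4 libraries, a pooled column, run from 58.9 (*TNFRSF19*) to 35294 (*CD44*).

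The siRNA libraries did not group by treatment alone. Across the genes tested, which are not independent replicates, the deviation of siCTRL 1 from its group mean correlated with that of sip53 2 (Pearson's r = 0.616). With 2 libraries a group the deviations mirror each other, so the value for siCTRL 2 with sip53 1 is the same by arithmetic. Of the 41 members tested, 38 (92.7%) were higher in siCTRL 1 and sip53 2 than in siCTRL 2 and sip53 1, or lower in both, against 74.4% of all genes tested. *BCL9L*, a β-catenin co-activator, stood at 144 and 44 FPKM in the siCTRL libraries and at 31.0 and 91.0 FPKM in the sip53 libraries. In 1 library of each group it was more than 2-fold above the other, and the groups overlapped.

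The question of the *ZMAT3* comparison was which RNAs change when *ZMAT3* is depleted. Of the 42 members, 11 passed both an adjusted p of 0.05 and a 1.5-fold difference (limma, two-sided, Benjamini-Hochberg adjustment over the 13029 genes), which is 26.2% of them against 8.96% of all genes. Of these, 6 fell, against 4.37% of all genes called lower, and 5 rose, against 4.6% of all genes called higher. The 6 that fell were *DKK1*, *SOX9*, *RNF43*, *TNFRSF19*, *NKD1* and *LGR4*. The 5 that rose were *EPHB3*, *SOX4*, *DVL3*, *TLE1* and *TCF7*. With the adjusted p alone, 17 members were higher (28.7% of all genes) and 12 lower (30.1% of all genes), together 69% of the members against 58.8% of all genes. The median log2 difference of the members was 0.05, against -0.01 over all genes, and their median absolute log2 difference was 0.24, against 0.17. The groups did not overlap for 32 of the 42 members (76.2%), against 64.2% of all genes. The smallest two-sided p that exact permutation allows for 3 libraries a group is 0.1, so the calls rest on limma, which shares the spread across genes.

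**Figure D1:**
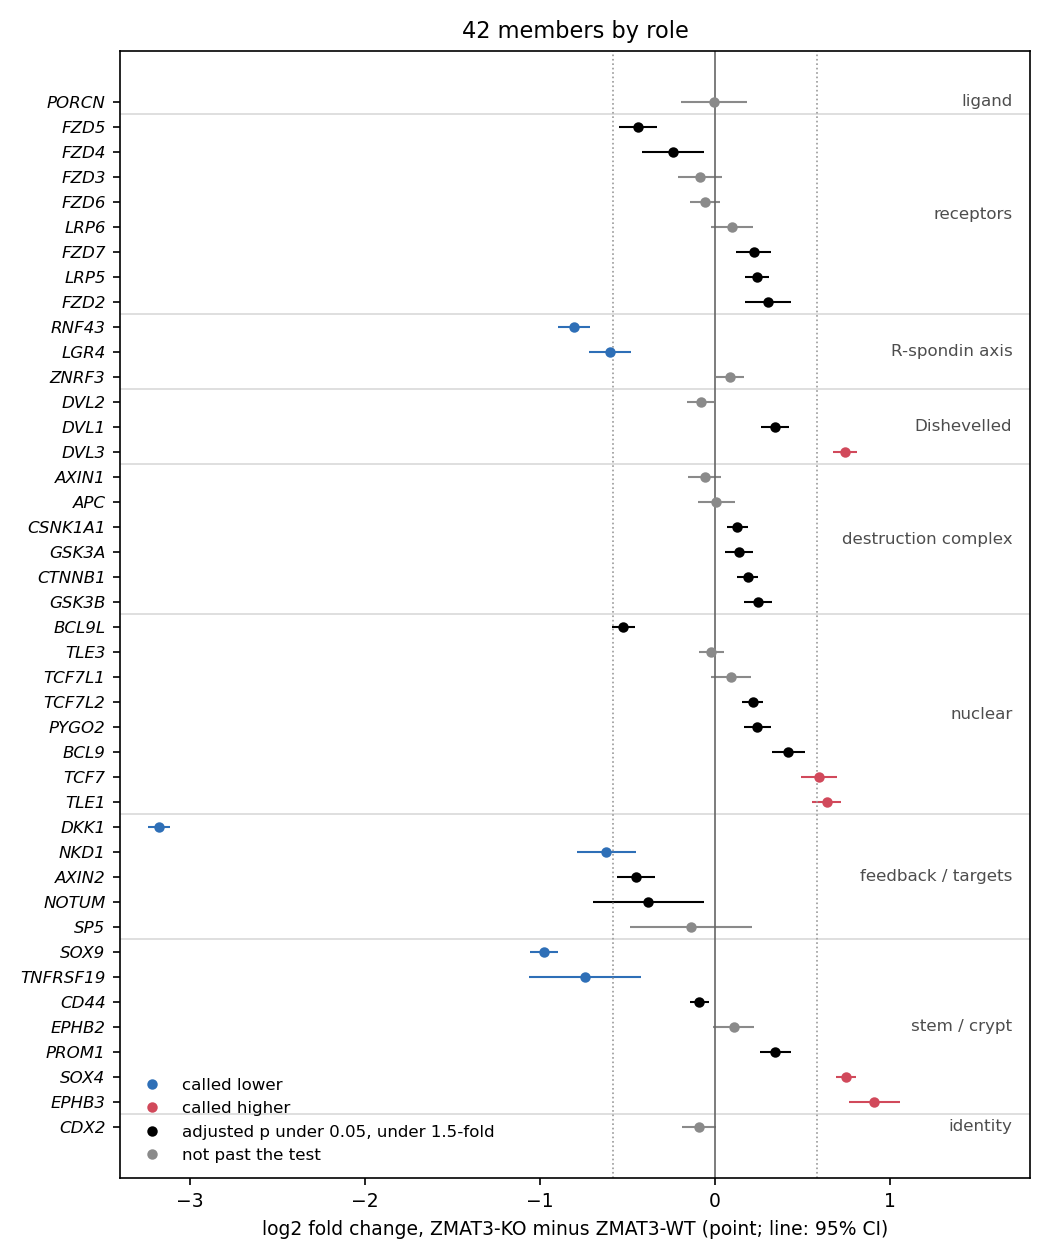
The log2 fold change of each of the 42 members (ZMAT3-KO minus ZMAT3-WT, point) with its 95% confidence interval (line), in the order of the pathway, with dotted lines at 1.5-fold. DKK1 lies far to the left at -3.18, and the genes grouped as destruction complex, which do not include AXIN2, stay within 0.25 of 0. All 5 members grouped as feedback and target genes lie below 0, while Wnt targets placed in other groups lie on both sides (RNF43 at -0.80, EPHB3 at 0.91).

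The start regions of the 4 called members with the largest differences, among those with an entry in the RefSeq table, are shown for reference, as the 250 bases before a RefSeq transcription start (GRCh38.p14), written 5′ to 3′ on the gene's strand. Of the 46 members, 32 matched the RefSeq table of start regions, and *SOX9* was not among them. The region of *DKK1* is chr10:52314031-52314280 (plus strand), where GENCODE release 44 places an exon of the antisense RNA gene *PRKG1-AS1*. That of *EPHB3* is chr3:184561535-184561784 (plus strand), outside any GENCODE gene. For *RNF43* an internal start is shown, at chr17:58402722-58402971 (minus strand), which lies in an intron of the gene and within the span of the antisense gene *TSPOAP1-AS1*. That of *SOX4* is chr6:21593501-21593750 (plus strand), in an intron of an unnamed antisense gene. Capitals mark a match to the TCF/LEF motif CTTTGAT or the AP-1 motif TGAGTCA, searched on both strands.
DKK1: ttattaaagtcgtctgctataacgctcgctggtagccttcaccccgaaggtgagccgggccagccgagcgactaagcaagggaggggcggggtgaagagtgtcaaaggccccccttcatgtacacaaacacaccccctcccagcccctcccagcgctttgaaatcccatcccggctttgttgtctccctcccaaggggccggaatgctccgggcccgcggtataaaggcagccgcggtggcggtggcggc
EPHB3: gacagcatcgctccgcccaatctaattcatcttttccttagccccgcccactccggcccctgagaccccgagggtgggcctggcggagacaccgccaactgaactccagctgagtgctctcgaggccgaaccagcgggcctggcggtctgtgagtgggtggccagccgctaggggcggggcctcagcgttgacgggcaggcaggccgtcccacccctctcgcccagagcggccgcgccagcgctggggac
RNF43: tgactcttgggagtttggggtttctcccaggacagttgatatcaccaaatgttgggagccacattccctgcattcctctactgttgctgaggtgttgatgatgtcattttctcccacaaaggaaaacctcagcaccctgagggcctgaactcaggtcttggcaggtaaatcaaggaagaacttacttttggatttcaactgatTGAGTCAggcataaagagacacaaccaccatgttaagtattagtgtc
SOX4: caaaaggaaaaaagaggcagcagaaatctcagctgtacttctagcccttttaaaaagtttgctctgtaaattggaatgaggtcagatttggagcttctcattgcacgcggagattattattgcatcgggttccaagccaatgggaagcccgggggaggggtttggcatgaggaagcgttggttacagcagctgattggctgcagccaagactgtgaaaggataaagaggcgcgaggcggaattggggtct

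The start region of *RNF43* at the beginning of the gene overlaps an exon, is not shown for that reason and held neither motif. Of the 4 regions shown, the internal one of *RNF43* held a match, to the AP-1 letters from 47 to 41 bases before its start. CTTTGAT was found in 2.26% and TGAGTCA in 4.2% of all 35116 start regions of this length. Among the 46 start regions of the 32 matched members, 2 held CTTTGAT (*SP5* and *PROM1*) and 2 held TGAGTCA (*PROM1* and *RNF43*). Only these exact letters were searched, so variants of either motif were not marked or counted in any region. These matches describe letters in a window and not binding.

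*PORCN*, the enzyme that attaches the lipid every Wnt ligand needs for secretion, ranged from 2.01 to 2.21 log2 CPM in *ZMAT3*-WT and from 2.03 to 2.15 log2 CPM in *ZMAT3*-KO. The groups overlapped, and the log2 difference was -0.00 ± 0.09 (SE).

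None of the 8 receptors and co-receptors reached a 1.5-fold difference. With the adjusted p alone, *FZD2* (log2 difference 0.30), *FZD7* (0.22) and the co-receptor *LRP5* (0.24) were higher, and *FZD5* (-0.44) and *FZD4* (-0.24) were lower. *FZD3*, *FZD6* and *LRP6* did not pass, with log2 differences from -0.09 to 0.10. The call of *FZD4* was lost without any 1 of 4 libraries (*ZMAT3*-WT 1 or 2, *ZMAT3*-KO 1 or 3), the log2 difference then lying between -0.18 and -0.22.

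At the step that sets how many Frizzled receptors stay on the cell surface, the genes moved unequally. *LGR4*, a receptor for the R-spondins, which amplify Wnt signals, was at 4.03, 4.10 and 4.10 log2 CPM in *ZMAT3*-WT and at 3.39, 3.55 and 3.49 log2 CPM in *ZMAT3*-KO. Every knockout library lay below every wild-type one, with a log2 difference of -0.60 ± 0.06 (limma SE, adjusted p = 1.57e-06), a 1.51-fold fall close to the threshold. *RNF43*, a ubiquitin ligase that removes Frizzled from the membrane and is itself a Wnt target, was at 4.96, 5.07 and 5.04 log2 CPM in *ZMAT3*-WT and at 4.21, 4.21 and 4.25 log2 CPM in *ZMAT3*-KO. The groups were far apart beside their spread, and the log2 difference was -0.80 ± 0.04 (limma adjusted p = 9.01e-09), a 1.75-fold fall. The related ligase *ZNRF3* did not follow it. Its level was 4.92 to 4.96 log2 CPM in *ZMAT3*-WT and 5.00 to 5.03 log2 CPM in *ZMAT3*-KO, a log2 difference of 0.09 ± 0.04 (limma adjusted p = 0.062). Another gene model shares exons with *RNF43* on its strand, so some of its reads may be split between them.

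The 3 Dishevelled genes, which carry the signal from Frizzled into the cell, did not move together. *DVL3* was at 6.12, 6.13 and 6.04 log2 CPM in *ZMAT3*-WT and at 6.84, 6.85 and 6.83 log2 CPM in *ZMAT3*-KO. The knockout libraries were nearly identical and all higher, with a log2 difference of 0.74 ± 0.03 (limma adjusted p = 1.23e-09), a 1.67-fold rise. *DVL1* was higher by a log2 value of 0.34 (adjusted p = 4.56e-06), under the fold threshold. For *DVL2* the log2 difference was -0.08, and it did not pass the test (adjusted p = 0.065).

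The genes grouped here as β-catenin and its destruction complex showed small differences. *AXIN2*, also a scaffold of that complex, is described below with the feedback genes and had a larger difference (log2 difference -0.45). *CTNNB1* was at 8.60, 8.62 and 8.59 log2 CPM in *ZMAT3*-WT and at 8.79, 8.83 and 8.75 log2 CPM in *ZMAT3*-KO. The groups did not overlap, but the log2 difference was only 0.19 ± 0.03 (limma adjusted p = 8.19e-05), a 1.14-fold rise. *APC*, the scaffold most often lost in colorectal cancer, was at 5.62, 5.69 and 5.71 log2 CPM in *ZMAT3*-WT and at 5.64, 5.80 and 5.61 log2 CPM in *ZMAT3*-KO. These groups overlapped over their whole range, and the log2 difference was 0.01, with a 95% confidence interval of -0.10 to 0.11. The kinases *GSK3A*, *GSK3B* and *CSNK1A1*, which phosphorylate β-catenin, were higher by log2 values of 0.14, 0.25 and 0.13. *AXIN1* did not pass the test (log2 difference -0.06). *APC*, like *AXIN2*, shares exons with another gene model on its strand, so reads may be split there too.

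Among the nuclear members, 2 of 8 rose by 1.5-fold or more and none fell by as much, where 4.6% of all genes were called higher and 4.37% lower. *TCF7*, a TCF/LEF factor that binds Wnt target genes, was at 4.49, 4.49 and 4.56 log2 CPM in *ZMAT3*-WT and at 5.11, 5.03 and 5.19 log2 CPM in *ZMAT3*-KO. All 3 knockout libraries were higher, with a log2 difference of 0.60 ± 0.05 (limma adjusted p = 3.92e-07), a 1.51-fold rise. *SKP1*, whose exons overlap *TCF7* on the other strand, had mean levels of 7.87 log2 CPM in *ZMAT3*-WT and 8.02 log2 CPM in *ZMAT3*-KO. Whether the counting used the strand is not given in the sources used here, so reads of *TCF7* may include some of *SKP1*. *TLE1*, a co-repressor that TCF factors recruit in the absence of β-catenin, was at 4.50, 4.50 and 4.48 log2 CPM in *ZMAT3*-WT and at 5.17, 5.11 and 5.12 log2 CPM in *ZMAT3*-KO. It rose 1.56-fold without overlap (log2 difference 0.64 ± 0.04, limma adjusted p = 2.71e-08), while its relative *TLE3* had a log2 difference of -0.02 and did not pass the test. *TCF7L2*, the main TCF factor of the intestinal epithelium, was at 7.39, 7.39 and 7.45 log2 CPM in *ZMAT3*-WT and at 7.62, 7.64 and 7.62 log2 CPM in *ZMAT3*-KO. The shift was small beside that of *TCF7*, a log2 difference of 0.22 ± 0.03 (limma adjusted p = 3.05e-05), and *TCF7L1* did not pass the test (0.09). The co-activators *BCL9* and *BCL9L*, which bridge β-catenin to Pygopus, went in opposite directions, with log2 differences of 0.42 and -0.52 (adjusted p = 4.21e-06 and 1.57e-08). *PYGO2*, the Pygopus protein of this set, was at 5.43, 5.37 and 5.41 log2 CPM in *ZMAT3*-WT and at 5.68, 5.64 and 5.62 log2 CPM in *ZMAT3*-KO, a log2 difference of 0.24 without overlap (limma adjusted p = 7.96e-05).

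The 5 members grouped here as feedback inhibitors and target genes all had negative log2 differences. Of these, 4 passed an adjusted p of 0.05, a threshold that 58.8% of all genes passed (30.1% as lower). Wnt targets placed in other groups went both ways, with *RNF43* lower (-0.80) and *EPHB3* higher (0.91). *DKK1*, the secreted inhibitor that binds LRP5 and LRP6, was at 9.56, 9.63 and 9.57 log2 CPM in *ZMAT3*-WT and at 6.42, 6.43 and 6.39 log2 CPM in *ZMAT3*-KO. The replicates of each group lay almost on top of each other. The log2 difference was -3.18 ± 0.03 (limma adjusted p = 6.58e-16), a 9.05-fold fall, with the smallest p of the 13029 genes and the 60th largest absolute log2 difference. *DKK1* lies at 52314281 to 52318042 of chromosome 10 (hg38, plus strand, GENCODE release 44). *PRKG1-AS1*, the RNA gene whose exons overlap *DKK1* on the other strand, was looked at after these values were seen. It was low, at 0.39, 0.56 and 0.49 log2 CPM in *ZMAT3*-WT, and at -2.36, -1.88 and -1.45 log2 CPM in *ZMAT3*-KO, a log2 difference of -2.38 ± 0.27 (limma adjusted p = 9.49e-06). The libraries were stranded, but whether the counting used the strand is not given in the sources used here, so reads of this pair of genes may not have been told apart. *PRKG1*, on the far side of the antisense gene, had a log2 difference of -0.31 and did not pass the test (adjusted p = 0.19).

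*NKD1*, which binds Dishevelled and dampens the signal, was at 3.76, 3.56 and 3.50 log2 CPM in *ZMAT3*-WT and at 3.10, 2.91 and 2.95 log2 CPM in *ZMAT3*-KO. All knockout libraries were lower, by a log2 value of -0.62 ± 0.08 (limma adjusted p = 2.08e-05), a 1.54-fold fall. *AXIN2*, the scaffold whose transcription is the usual readout of β-catenin activity, was at 4.02, 4.10 and 4.02 log2 CPM in *ZMAT3*-WT and at 3.60, 3.58 and 3.61 log2 CPM in *ZMAT3*-KO. The groups did not overlap, and the log2 difference of -0.45 ± 0.05 (limma adjusted p = 6.84e-06) was a 1.37-fold fall, under the fold threshold. *NOTUM*, a secreted enzyme that strips the lipid from Wnt ligands, was low and its groups overlapped (log2 difference -0.38 ± 0.15, limma adjusted p = 0.04). Its call was lost without any 1 of 4 libraries (*ZMAT3*-WT 1 or 3, *ZMAT3*-KO 1 or 2), with log2 differences between -0.25 and -0.42, and when the variance trend was left out. *SP5*, a transcription factor and direct Wnt target, did not pass the test (log2 difference -0.14 ± 0.16). Whether the feedback genes as a group differ from other genes was not tested.

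Of the 7 stem cell and crypt genes, 4 passed both thresholds, 2 in each direction. Over all genes, 4.6% were called higher and 4.37% lower. *SOX9*, a transcription factor of crypt stem and Paneth cells, was at 6.28, 6.26 and 6.26 log2 CPM in *ZMAT3*-WT and at 5.22, 5.35 and 5.30 log2 CPM in *ZMAT3*-KO. Every knockout library was lower, and the group means differed 1.97-fold (log2 difference -0.98 ± 0.04, limma adjusted p = 3.58e-10). *TNFRSF19*, a receptor enriched in intestinal stem cells, fell by a log2 value of 0.74 ± 0.15, from 1.17, 1.44 and 1.14 to 0.71, 0.30 and 0.52 log2 CPM (limma adjusted p = 0.000892). Its groups did not overlap, although the level was low and the spread wide. *EPHB3*, a receptor that positions cells along the crypt and a Wnt target, was at 2.45, 2.45 and 2.42 log2 CPM in *ZMAT3*-WT and at 3.36, 3.26 and 3.43 log2 CPM in *ZMAT3*-KO. It had the largest rise of the 42 members, a log2 difference of 0.91 ± 0.07 (limma adjusted p = 1.79e-07) or 1.88-fold, while the related *EPHB2* did not pass the test (log2 difference 0.11, adjusted p = 0.1). *SOX4*, a transcription factor of progenitor cells, was at 7.02, 7.04 and 7.05 log2 CPM in *ZMAT3*-WT and at 7.76, 7.81 and 7.79 log2 CPM in *ZMAT3*-KO. All knockout libraries were higher, by a log2 value of 0.75 ± 0.03 (limma adjusted p = 1.94e-10) or 1.68-fold, opposite to *SOX9*. Of the surface markers used to sort colorectal cancer cells, *PROM1* (CD133) was higher by a log2 value of 0.35, and *CD44* was lower by a log2 value of -0.09, a call lost without *ZMAT3*-KO 1 (-0.07). *CDX2*, the transcription factor that keeps intestinal identity, was at 4.59, 4.51 and 4.54 log2 CPM in *ZMAT3*-WT and at 4.44, 4.51 and 4.43 log2 CPM in *ZMAT3*-KO. The groups met near 4.51 without overlapping, and the log2 difference of -0.09 ± 0.04 did not pass the test (limma adjusted p = 0.098).

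Beside these genes, the differentiation markers of enterocytes that had values were also lower. Of 10 such markers 2 had values, *KRT20* (log2 difference -1.47) and *CA2* (-1.15). *KRT20* was low, with means of 1.32 log2 CPM in *ZMAT3*-WT and -0.15 log2 CPM in *ZMAT3*-KO, against 6.41 and 5.27 log2 CPM for *CA2*. Their summed level, mostly that of *CA2*, was 86.5 to 88.7 CPM in *ZMAT3*-WT and 38.0 to 40.2 CPM in *ZMAT3*-KO. In such bulk samples, fewer cells of a type and less RNA per cell cannot be told apart.

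**Figure D2:**
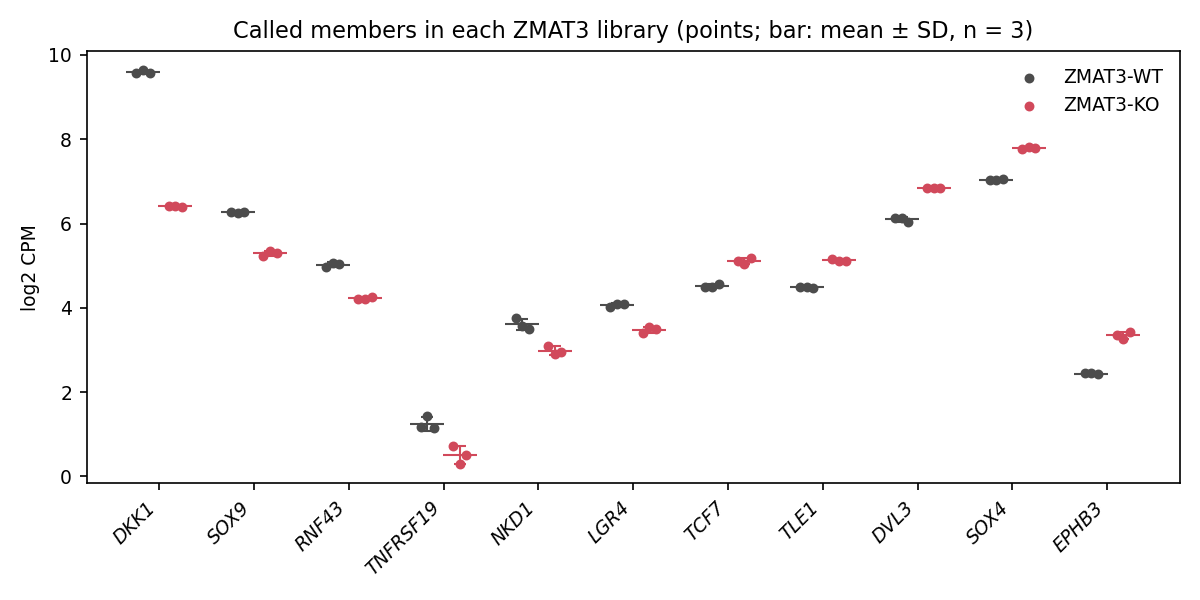
The log2 CPM of the 11 called members in each ZMAT3-WT (grey) and ZMAT3-KO (red) library, with the mean and SD of 3 libraries, ordered by difference. For each gene the 3 libraries of a group lie apart from those of the other, and DKK1 drops from about 9.59 to 6.41 log2 CPM.

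The calls held at the adjusted p, while some depended on the setting at the 1.5-fold threshold. All 11 stayed past an adjusted p of 0.05 in each of 11 other settings, which included leaving out each library. With the 1.5-fold threshold, *TCF7* lost its call in 4 of the 11 settings (without *ZMAT3*-WT 1, *ZMAT3*-WT 2 or *ZMAT3*-KO 3, and with a pseudocount of 1), *NKD1* in 3 (without *ZMAT3*-WT 1 or *ZMAT3*-KO 2, and with that pseudocount), *LGR4* in 2 (without *ZMAT3*-KO 1, and with that pseudocount) and *TNFRSF19* in 1, with that pseudocount. At 2-fold, *DKK1* alone remained.

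Of 104 other genes of the pathway and the crypt, 66 had values in the *ZMAT3* table. In all, 1 rose and 5 fell past both thresholds, 9.09% of the 66 against 8.96% of all genes. *MEX3A*, an RNA-binding protein of slowly dividing crypt cells, rose, with a log2 difference of 1.72 ± 0.06 (limma adjusted p = 7.05e-11). *DACT1*, which binds Dishevelled, fell by a log2 value of 1.97 ± 0.20 from a low level of 0.89 to -1.08 log2 CPM. *HNF4A*, a transcription factor of enterocyte differentiation, fell by 1.48 ± 0.08 on the log2 scale. The 5 other Wnt target genes with values all passed the adjusted p under the fold threshold, with *EPHB4* (log2 difference 0.44) and *BMP4* (0.09) higher and *MYC* (-0.30), *ETS2* (-0.16) and *CCND1* (-0.14) lower. The adjusted p alone was passed by 24 higher and 18 lower of the 66 genes (63.6%, against 58.8% of all genes), among them 2 higher and 2 lower of 9 Wnt ligand, secretion and R-spondin genes, 13 higher and 4 lower of 27 cytoplasmic and nuclear components and 4 higher and 4 lower of 10 stem cell and crypt markers. The 11 secreted inhibitors of this list were not analysed here in the *ZMAT3* comparison.

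The question of the siRNA comparison was which RNAs depend on p53, the activator of *ZMAT3*. Of the 41 members tested, 3 passed an unadjusted limma p of 0.05 (7.32%, against 15.1% of all 14274 genes). *EPHB3* rose, where 5.86% of all genes were called higher, and *AXIN2* and *PYGO2* fell, where 9.28% were called lower. None of the 41 passed an adjusted p of 0.05, against 0.273% of all genes. The count depended on the pairing of the libraries: with the replicate number as a block 0 members were higher and 1 lower, and with the crossed pairing described above, chosen after seeing the data, 5 were higher and 7 lower. *TNFRSF19* was below the minimum mean of 0.5 FPKM and was not tested. The median log2 difference of the members was -0.04, the same as over all genes (-0.04), and their median absolute log2 difference was 0.16, against 0.28. The groups did not overlap for 13 of the 41 members (31.7%), against 46.4% of all genes. With 2 libraries a group, the smallest p of an exact permutation test is 0.333. After median centring of each library, 51.7% of all calls were higher, against 38.7% without centring.

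*EPHB3* was at 2.03 and 2.34 FPKM in siCTRL and at 3.81 and 3.06 FPKM in sip53. Both sip53 libraries were higher, with a difference of 0.62 ± 0.24 on the log2(FPKM + 0.1) scale (limma adjusted p = 0.32). *AXIN2* was at 9.48 and 11.0 FPKM in siCTRL and at 6.59 and 4.77 FPKM in sip53. Both sip53 libraries were lower, with a difference of -0.86 ± 0.23 on the same scale (limma adjusted p = 0.21), a 1.81-fold fall. *PYGO2* was at 21.2 and 23.7 FPKM in siCTRL and at 16.1 and 14.1 FPKM in sip53, again without overlap (-0.58 ± 0.18, limma adjusted p = 0.25). The unadjusted calls depended on the fit and on single libraries. The replicate block ended those of *EPHB3* and *PYGO2*, and testing without a filter on low values also ended that of *EPHB3*. When any 1 library was dropped, 0 to 2 members were higher and 0 to 3 lower. That of *EPHB3* was lost without any 1 of the 4 libraries, with differences from 0.47 to 0.78. That of *PYGO2* was lost without siCTRL 1, siCTRL 2 or sip53 2 (-0.48 to -0.66) and that of *AXIN2* without siCTRL 2 or sip53 2 (-0.63 to -0.75). *PYGO2* also overlaps *SHC1* on the same strand, so its reads may be shared.

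**Figure D3:**
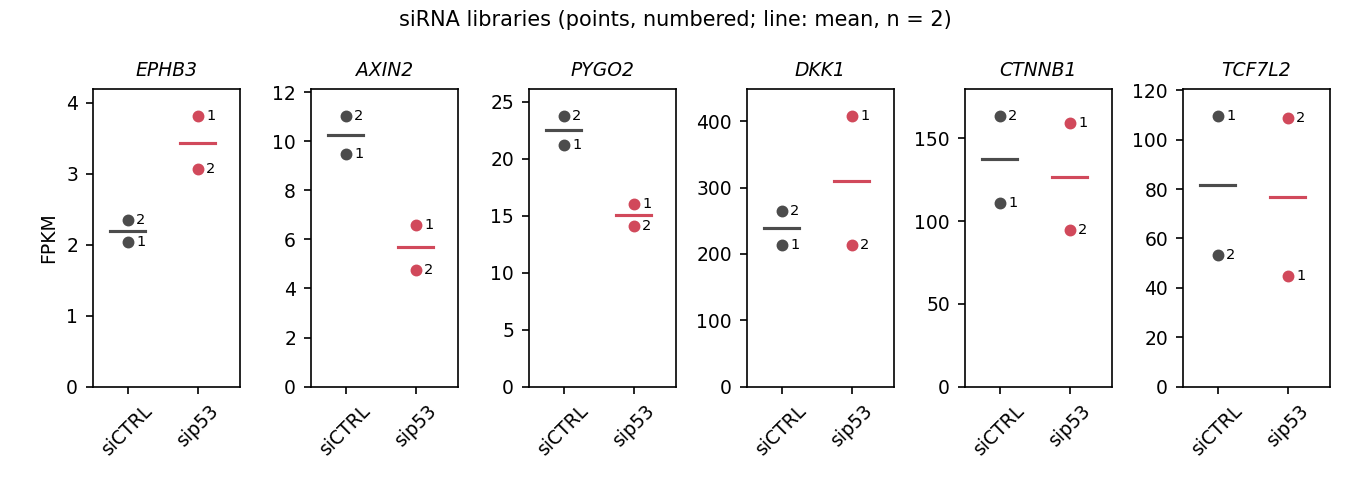
FPKM of the 3 members called in the siRNA comparison and of DKK1, CTNNB1 and TCF7L2 in siCTRL (grey) and sip53 (red), each point numbered by library, with the mean of 2 libraries as a line. EPHB3, AXIN2 and PYGO2 show no overlap, while TCF7L2 is at 110 and 109 FPKM in siCTRL 1 and sip53 2 and at 53.3 and 44.8 FPKM in siCTRL 2 and sip53 1.

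Of the 10 members called in *ZMAT3*-KO cells and tested after p53 knockdown, *EPHB3* alone passed the unadjusted test there. That test was passed by 15.1% of all genes. *DKK1* was at 214 and 265 FPKM in siCTRL and at 408 and 213 FPKM in sip53. A single sip53 library was high and the groups overlapped, with a difference of 0.31 ± 0.35 on the log2(FPKM + 0.1) scale and a 95% confidence interval of -0.57 to 1.19. Without sip53 1 it was -0.16. *SOX9* was at 106 and 89.6 FPKM in siCTRL and at 72.9 and 84.4 FPKM in sip53, without overlap, with a difference of -0.32 ± 0.20 (limma adjusted p = 0.51). For *RNF43*, *LGR4*, *NKD1*, *SOX4*, *DVL3*, *TLE1* and *TCF7* the differences lay between -0.35 and 0.08 on that scale. *CTNNB1* was at 111 and 163 FPKM in siCTRL and at 159 and 94.4 FPKM in sip53, and *TCF7L2* at 110 and 53.3 FPKM in siCTRL and at 44.8 and 109 FPKM in sip53. In both genes the libraries of a group differed from each other more than the group means did. *APC* was at 5.31 and 4.38 FPKM in siCTRL and at 4.52 and 4.90 FPKM in sip53, and *CDX2* at 10.8 and 10.2 FPKM in siCTRL and at 7.30 and 11.1 FPKM in sip53. Their differences were -0.03 and -0.22, within overlapping groups.

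**Figure D4:**
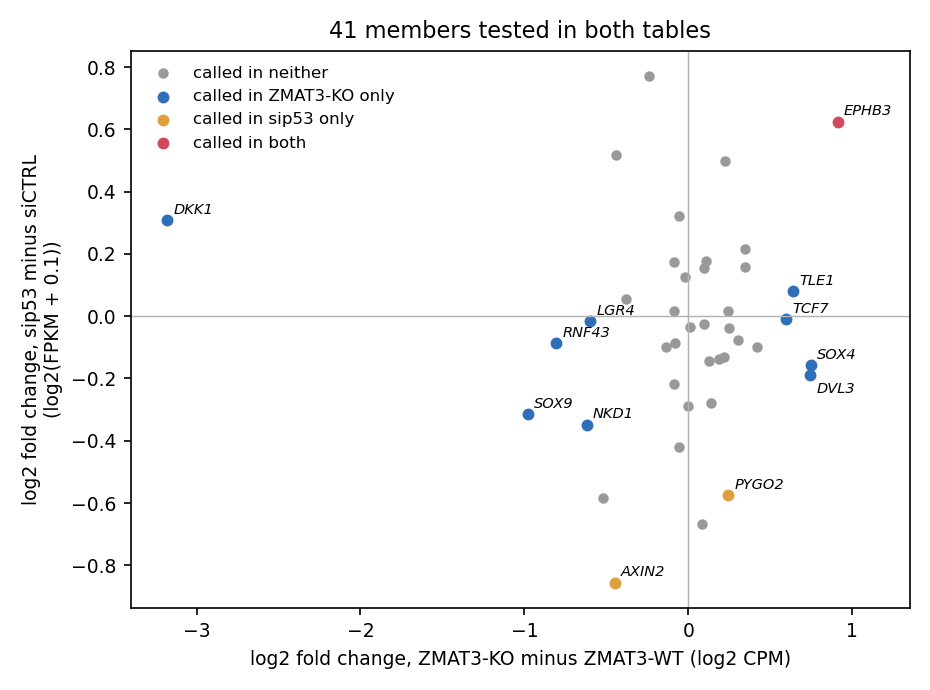
Log2 fold changes of the 41 members tested in both tables, with ZMAT3-KO minus ZMAT3-WT on the horizontal axis and sip53 minus siCTRL on the vertical axis. EPHB3 (0.91 and 0.62) is the member called in both, and DKK1 lies at -3.18 and 0.31.

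*EPHB3* was higher and *AXIN2* lower in both comparisons, the latter under 1.5-fold in *ZMAT3*-KO cells. In the siRNA comparison neither gene passed the adjustment (limma adjusted p = 0.32 and 0.21), and both calls depended on single libraries. How often genes share a sign across the comparisons was not tested. *PYGO2* passed an adjusted p in the *ZMAT3* comparison with the opposite sign (0.24 against -0.58). The tables were normalized separately and share no samples, and no test was made of the difference between them.

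FPKM values are per length, so the members can be ranked within the siRNA table. In siCTRL the highest means were those of *CD44* (517 ± 88.5 FPKM, SD, n = 2), *DKK1* (239 ± 35.9), *CTNNB1* (137 ± 37.1), *SOX4* (111 ± 9.74) and *SOX9* (97.9 ± 11.8). *CD44* and *DKK1* were apart from their neighbours in every siCTRL library, whereas *CTNNB1*, *SOX4* and *SOX9* overlapped or lay within their spread. The lowest were *SP5* (1.59 FPKM), *FZD4* (1.59 FPKM) and *TNFRSF19* (0.495 FPKM). The median of the 41 members tested was 16.2 FPKM, against 11.0 FPKM over all genes tested. Within families, *FZD6* made up 50.8% and 45.5% of the summed FPKM of 8 Frizzled genes in the siCTRL libraries and 38.0% and 39.3% in the sip53 libraries. *TCF7L2* made up 64.1% to 72.5% of the summed FPKM of *TCF7*, *TCF7L1* and *TCF7L2* over the 4 libraries. *LRP5* made up 81.1% to 85.1% of the pair with *LRP6*, and *GSK3A* 60.9% to 71.7% of the pair with *GSK3B*. The 3 Dishevelled genes were more even, at 35.9% to 42.6% for *DVL1*, 26.3% to 34.2% for *DVL2* and 23.2% to 33.8% for *DVL3*.

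**Figure D5:**
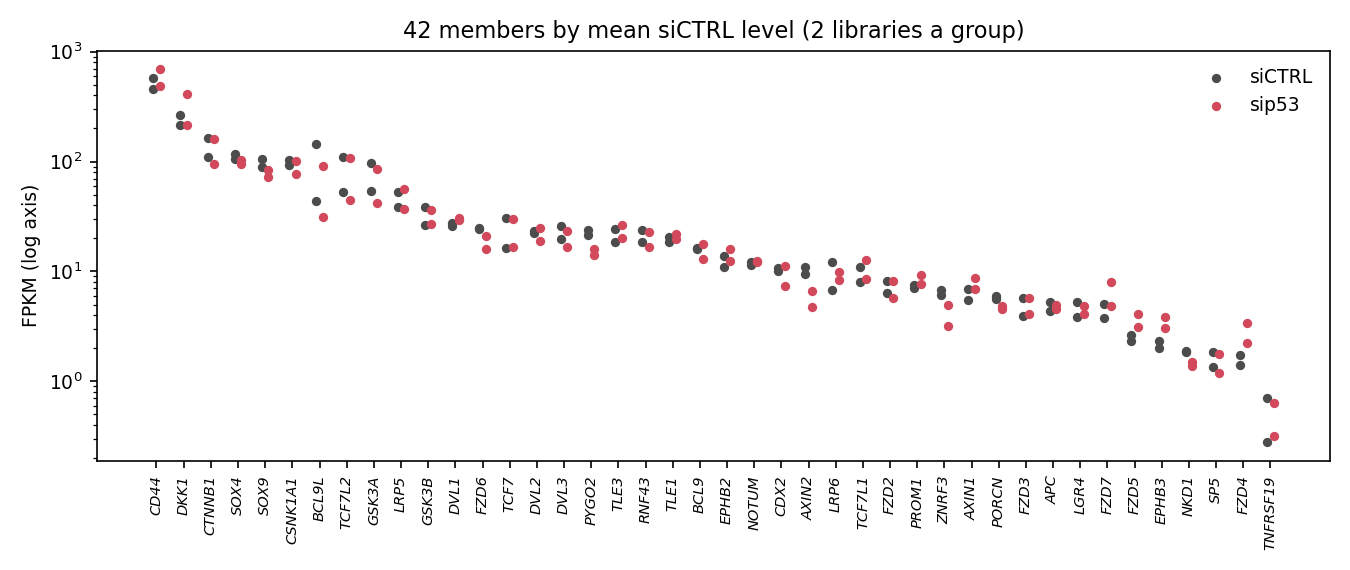
FPKM (log axis) of the 42 members in each siCTRL (grey) and sip53 (red) library, ordered by their mean in siCTRL. Levels run from CD44 at 517 FPKM to TNFRSF19 at 0.495 FPKM, and BCL9L stands at 144 and 44 FPKM in the siCTRL libraries.

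Of the 104 other pathway and crypt genes, 67 were tested in the siRNA table, and 5 were called higher and 6 lower at the unadjusted p (16.4%, against 15.1% of all genes). None passed the adjusted p. *MEX3A*, higher in *ZMAT3*-KO cells, was among the 6 called lower here, with a difference of -0.74 ± 0.26 on the log2(FPKM + 0.1) scale (limma adjusted p = 0.28). *FBXW11* and *WNT4* were among those with a difference of 2-fold or more. *FBXW11*, a ubiquitin ligase subunit that recognises phosphorylated β-catenin, was at 24.6 and 28.2 FPKM in siCTRL and at 12.5 and 10.7 FPKM in sip53, without overlap (-1.18 ± 0.19 on the log2(FPKM + 0.1) scale, limma adjusted p = 0.11). *WNT4*, a Wnt ligand, was at 0.90 and 0.79 FPKM in siCTRL and at 1.52 and 2.51 FPKM in sip53 (1.12 ± 0.36, limma adjusted p = 0.25). The call of *WNT4* was lost without siCTRL 2 or sip53 2, with differences of 1.04 and 0.78.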

How the data were processed

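RNA-seq values of HCT116 cells were used for 6 *ZMAT3* libraries (3 *ZMAT3*-WT, 3 *ZMAT3*-KO) and 4 siRNA libraries (2 siCTRL, 2 sip53), grouped by their labels. For the *ZMAT3* libraries the authors used Cutadapt for trimming, STAR for alignment to hg38 and RSEM for quantification. The deposited values are log2 CPM values that share a single distribution over the 6 libraries. Such scaling hides global shifts, and the depth is not recoverable. For the siRNA libraries the deposited values were taken as FPKM from their range and sums (708634 to 829230), since the unit, aligner settings and build are not given in the sources used here. The labels list CASAVA 1.8.2, FastQC 0.11.2 and TopHat2 2.0.8 without roles. The authors' mean normalized count, a pooled signal, served only to describe depth. The deposited fold changes and p-values of the authors' own comparisons were not used.

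Neither table holds counts, so no count model was run. Each table was fitted whole with limma 3.58.1 in R 4.3.3 (variance trend, two-sided, Benjamini-Hochberg adjustment): the 13029 genes on log2 CPM, and the 14274 of 17642 genes whose mean reached 0.5 FPKM on log2(FPKM + 0.1), a scale that understates the change of low genes. A call needed an adjusted p under 0.05 and 1.5-fold in the *ZMAT3* table, and an unadjusted p under 0.05 in the siRNA table. Named genes were the members called in either table, *CTNNB1*, *APC*, *AXIN2*, *TCF7L2* and *CDX2*, and other pathway genes called at 2-fold or more. Some genes that this rule or the label check would name are not reported here. The members and lists were chosen with earlier results of these data known. Alternatives were another pseudocount, filters on low values, median centring, no variance trend, a replicate block, other thresholds and leaving out each library. The fits were tested on simulated data with independent noise in each library. That setting lacks the crossed deviation of the siRNA libraries, so it does not check their p-values. Scripts ran in Python 3.11.15.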

Additional observations from a re-analysis of the deposited data

How the results depend on the processing

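In the *ZMAT3* comparison, 4 members rose and 3 fell with a pseudocount of 1, and at 2-fold 0 rose and 1 fell, with 3 other pathway genes lower. Leaving out each library gave 4 to 5 members higher and 5 to 6 lower, a member median of 0.010 to 0.056 and 1 to 2 other pathway genes higher. Same-numbered libraries did not deviate together (r = -0.04, -0.02 and -0.09), so the numbers do not pair them, and the replicate block gave 603 genes higher and 575 lower, against 599 and 569. *PORCN* (-0.048 to 0.052) and *APC* (-0.051 to 0.045) changed sign.

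In the siRNA comparison, 0 members were higher with a minimum of 5 FPKM or with no filter, and 2 with median centring or no variance trend. The replicate block gave 0 higher and 1 lower, and an adjusted p gave 0 in each direction. Leaving out each library, where the lone sample is assumed to vary like the other group, gave 0 to 2 higher, 0 to 3 lower and a member median of -0.11 to 0.14. Of the other pathway genes, 2 were higher with a minimum of 5 FPKM, 8 with centring, 2 higher and 3 lower with the replicate block, 0 by adjusted p, and 1 to 3 higher and 2 to 6 lower with a library left out. A crossed pairing, chosen after seeing the data, gave 5 members higher and 7 lower. Over all genes the calls were 836 higher and 1325 lower, against 1120 and 1048 with centring (a shift of -0.08), 434 and 650 with the replicate block, and 2410 and 3128 with the crossed pairing. With a library left out the sign changed for *LGR4* (-0.23 to 0.20), *RNF43* (-0.31 to 0.14), *DVL3* (-0.43 to 0.056), *CTNNB1* (-0.51 to 0.24), *APC* (-0.17 to 0.10), *TCF7* (-0.46 to 0.44), *TCF7L2* (-0.77 to 0.51), *DKK1* (-0.16 to 0.78) and *CDX2* (-0.52 to 0.083), and with centring for *LGR4* (0.059), *APC* (0.041) and *TCF7* (0.067). The cause was not tested. With 2 libraries a group, the siRNA data limit what can be called.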

Other observations

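Of the epithelial markers, *KRT19*, *KRT8* and *KRT18*, keratins of simple epithelia, fell in *ZMAT3*-KO cells with log2 differences of -1.75, -0.94 and -0.82 (limma adjusted p under the threshold for each), while *EPCAM* (0.01) and *CDH1* (0.05) did not pass the test. Among the lineage markers of the crypt, 1 of 7 goblet genes had a value in the *ZMAT3* table and did not pass the test, and the Paneth, enteroendocrine and tuft lists had none.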
